A study of Mus musculus with 4 samples.

Results

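Brush-border disaccharidases and peptidases are enzymes anchored in the microvilli of absorptive enterocytes, where they cut dietary sugars and peptides just before uptake. The genes described here were Lct, Sis, Mgam, Treh, Anpep, Dpp4, Mep1a, Mep1b and Enpep, 9 in all, chosen from an array on which 18194 genes had a probe set of their own. The choice was by name, and every probe set whose annotation names the gene was taken. The annotation used here names no probe set for Sis, so 8 genes with 12 probe sets were measured. For each gene the probe set with the highest mean over the 4 arrays stands first.

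Laser microdissection of frozen small intestine supplied the RNA, and the captured cells were Paneth cells, which sit at the crypt bottom and secrete antimicrobial granules. All mice were males of the NMRI strain aged 8 weeks. In the germ-free group the mice were kept without microbes until sacrifice, and in the conventionalized group formerly germ-free mice had been given microbes from the gut of a normally reared mouse 10 days earlier. RNA of 3 mice was pooled in each group, and 2 aliquots of 10 ng per pool were amplified separately, each for 1 Affymetrix array. Replicates 1 and 2 thus share their RNA, so the p-values below measure amplification and array error and not the spread between mice.

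Enterocytes build these enzymes as they leave the crypt and mature on the villus, and Paneth cells are not known for making them. Lactase, sucrase-isomaltase, maltase-glucoamylase and trehalase release single sugars. The peptidases remove amino acids or dipeptides from the ends of peptides or, in the case of the meprins, cut within them. Several of the peptidases are also made outside the epithelium, Dpp4 in lymphocytes, Anpep in myeloid cells and fibroblasts, and Enpep in pericytes.

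At their brightest probe sets all 8 measured genes passed the filter on low signal, a mean above 113.9 over the arrays. Of the 18194 genes with a probe set of their own, 12113 passed in the same way. The filter is the median of all probe set means and not a call of detection. Anpep read 94.5, below that cutoff, on conventionalized replicate 1. Of the 8 genes, 7 had a log2 difference (conventionalized minus germ-free, on log2(intensity + 32)) below 0, as did 50% of all genes tested. The lowest values relative to germ-free were those of Mep1a, a meprin subunit, at a log2 difference of -1.49, and Lct, lactase, at -1.29. These 2 of the 8 lay below -1, beside 6.29% of all genes. Mgam, maltase-glucoamylase, lay closest to 0, at 0.10. The median over the 8 genes was -0.65, beside 0.00 over the 12113 genes tested. No gene among the 8 passed limma's threshold of an adjusted p under 0.05 over all 22491 probe sets tested, where 0.355% of genes passed in either direction and 0.248% passed as lower. In these bulk captures, a difference in enterocyte number and one in enzyme RNA per enterocyte cannot be told apart, and neither was tested.

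Without adjustment, 3 of the 8 (Lct, Treh and Mep1a) had a limma p under 0.05, all lower, where 3.91% of all genes tested were lower at that level. In the same 3 genes both conventionalized arrays lay below both germ-free arrays, called separate groups here, and 16.1% of all genes did so. None of the 8 lay wholly above, beside 15.9% of all genes. The count of the 8 with an unadjusted limma p under 0.05 depended on the processing. It was 1 with median centring, 2 without the variance trend and 4 with quantile normalization. With 4 arrays there are 3 ways to split them into 2 and 2, so a permutation test of a single gene could not go below p = 0.333. The fitted standard errors are those shared by probe sets of like signal, and each interval below is a 95% interval from them.

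The arrays did not carry the same error. Conventionalized replicate 2 correlated with the other arrays at 0.754 to 0.779 across tested probe sets, and the 3 others correlated with each other at 0.855 to 0.890. Between duplicates, the log2 difference over all genes tested had an SD of 0.81 for the germ-free pair and 0.99 for the conventionalized pair. Fluidics station 1 washed the germ-free pair and station 2 the conventionalized pair, and station and group cannot be told apart. The deposited signals had a mean of 250 on each array after 2% was trimmed from each end.

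**Figure D1:**
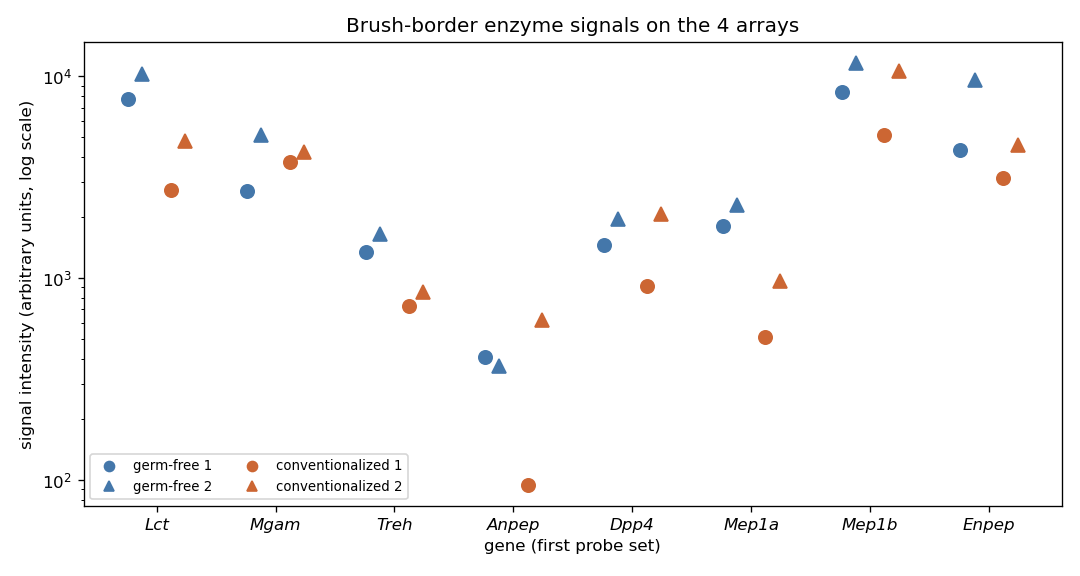
Signal intensity (log axis, arbitrary units) of the brightest probe set of each gene on the 4 arrays, with circles for replicate 1 and triangles for replicate 2 of each group. For Lct, Treh and Mep1a both conventionalized points lie below both germ-free points, and the 5 other genes overlap; heights of different genes are not comparable, since each probe set binds with its own strength.

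The sequences before the transcription start are shown for the 3 genes with separate groups and for Mgam, whose groups overlapped, because factors of enterocyte genes are known to act there. They are the 250 bases upstream of the start, from RefSeq on GRCm38.p6, 5′ to 3′ on the strand of the gene, and 8 of the 9 genes had such a window (all but Mep1b). Capitals mark matches on either strand to GATAA (bound by GATA factors), TTTAT or TTTAC (bound by CDX factors) and GTTAAT (an arm of the HNF1 site); a TTTAT match can overlap a GATAA match. The windows are chr1:128328319-128328568 on the minus strand for Lct, chr17:43502774-43503023 on the minus strand for Mep1a, chr9:44672983-44673232 on the plus strand for Treh and chr6:40628581-40628830 on the plus strand for Mgam.
Lct: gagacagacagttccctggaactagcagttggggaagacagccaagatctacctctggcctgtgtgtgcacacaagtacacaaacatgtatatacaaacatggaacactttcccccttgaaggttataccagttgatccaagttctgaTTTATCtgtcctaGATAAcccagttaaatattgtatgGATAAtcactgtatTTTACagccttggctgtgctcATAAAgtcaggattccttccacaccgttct
Mep1a: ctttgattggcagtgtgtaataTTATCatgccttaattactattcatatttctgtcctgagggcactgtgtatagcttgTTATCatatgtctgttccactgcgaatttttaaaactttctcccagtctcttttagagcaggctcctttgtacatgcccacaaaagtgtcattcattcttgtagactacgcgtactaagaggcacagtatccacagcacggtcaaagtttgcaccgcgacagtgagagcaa
Treh: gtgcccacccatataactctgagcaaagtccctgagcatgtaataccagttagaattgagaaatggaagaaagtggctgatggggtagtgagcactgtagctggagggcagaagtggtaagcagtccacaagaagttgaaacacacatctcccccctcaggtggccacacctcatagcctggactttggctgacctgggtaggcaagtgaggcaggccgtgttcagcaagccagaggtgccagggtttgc
Mgam: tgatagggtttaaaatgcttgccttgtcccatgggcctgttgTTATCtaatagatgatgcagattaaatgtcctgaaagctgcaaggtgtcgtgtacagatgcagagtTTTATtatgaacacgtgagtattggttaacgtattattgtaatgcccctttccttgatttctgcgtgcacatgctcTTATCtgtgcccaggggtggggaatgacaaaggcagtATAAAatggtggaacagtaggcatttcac

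Lct held 3 GATAA, 2 TTTAT and 1 TTTAC match, Mep1a 2 GATAA matches, Mgam 2 GATAA and 2 TTTAT matches, and Treh none of the 4 motifs. Over the 8 enzyme windows, 5 held GATAA and 5 held TTTAT, while 22.6% and 37.3% of all 32851 windows did. TTTAC was found in 1 of the 8 (28.3% of all windows) and GTTAAT in 1 of the 8, that of Sis (6.43% of all windows). Matches were thus present at Mgam, whose groups overlapped, and none was found at Treh, whose groups were separate. A match is a description of letters and not a binding site.

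Among the disaccharidases, Lct (gene identifier 226413), which splits milk sugar, read 7693 and 10232 in the germ-free pool against 2729 and 4774 in the conventionalized pool. The groups did not overlap, and within each group replicate 2 was the higher array. The log2 difference was -1.29 ± 0.49 (SE, 2 arrays per group), with an interval from -2.26 to -0.32 and a limma adjusted p of 0.543. Leaving out conventionalized replicate 1 gave -0.89 and leaving out conventionalized replicate 2 gave -1.69.

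Treh (58866), trehalase, which splits the fungal and insect sugar trehalose, had signals of 1355 and 1657 in germ-free against 727 and 854 in conventionalized material. Duplicates lay close together, with an SD of 0.18 on the log2 scale, and the groups were separate. Its log2 difference was -0.90 ± 0.42 with an interval from -1.72 to -0.08 (limma adjusted p = 0.869). With any 1 array left out it stayed between -1.04 and -0.76.

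Mgam (232714), which frees glucose from starch fragments, read 2707 and 5107 in germ-free against 3757 and 4233 in conventionalized material, so both conventionalized arrays lay between the germ-free pair. The difference of 0.10 ± 0.46 had an interval from -0.80 to 1.00, which does not show that the level was the same. It was -0.35 without germ-free replicate 1. Lct and Mgam, both sugar-splitting enzymes, can be set against each other on the same array. Centred on its own mean, the log2 ratio of Lct to Mgam was 0.94 and 0.45 in germ-free against -1.01 and -0.38 in conventionalized material. The difference in the log2 ratio between groups was -1.39, and duplicates lay 0.50 and 0.63 apart. Of the measured disaccharidases Lct had the lowest difference and Mgam the highest, so this pair spans the widest gap among them. No ratio with Treh was formed. This pair and those below were set together by enzyme class, and the ratios were not tested.

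Among the peptidases, Mep1a had the largest difference at its brightest probe set. Meprins are zinc metalloproteinases assembled from alpha and beta subunits, encoded by Mep1a and Mep1b. Mep1a (17287) read 1804 and 2303 in germ-free against 513 and 965 in conventionalized material at its brightest probe set, 1450719_at. The groups were separate, with the lower conventionalized array at 513 and the lower germ-free array at 1804. The log2 difference of -1.49 ± 0.42 (interval -2.31 to -0.67) had the smallest limma adjusted p of the 8 genes, 0.0756, which did not pass. With the scaling, filter, pseudocount, variance model or arrays changed, that adjusted p ranged from 0.0510 without conventionalized replicate 2 to 1.00 without the variance trend.

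The other Mep1a probe set, 1447252_s_at, did not show the same values. It read 557 and 466 against 356 and 693, an overlapping pair of groups with a log2 difference of -0.03 ± 0.46. Averaging both probe sets gave -0.76 for Mep1a. The suffix _s_at marks probes that can match more than a single transcript, and which probe set follows the meprin transcript better cannot be read from these values.

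Mep1b (17288), the beta subunit, gave 8365 and 11586 in germ-free against 5114 and 10636 in conventionalized material. The groups overlapped, and the log2 difference was -0.42 ± 0.55 (interval -1.49 to 0.66). Set against each other on the same array, the subunits gave a ratio with little duplicate error. Centred on its mean, the log2 ratio was 0.60 and 0.48 in germ-free against -0.45 and -0.63 in conventionalized material. The difference between groups was -1.08, with duplicates 0.12 and 0.18 apart, at the brightest probe set of Mep1a. At the other Mep1a probe set that difference had the opposite sign, at 0.39 with duplicates 0.71 and 0.15 apart, so the ratio depends on the probe set.

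The aminopeptidases showed wider duplicate error. Enpep (13809), aminopeptidase A, which removes acidic residues and also cleaves angiotensin II, read 4311 and 9545 in germ-free against 3151 and 4558 in conventionalized material. The higher conventionalized array lay just above the lower germ-free array, and the log2 difference was -0.76 ± 0.48 (interval -1.69 to 0.18). Leaving out germ-free replicate 2 gave -0.18, and leaving out germ-free replicate 1 gave -1.33. The other list that holds known sources of Enpep, the pericyte, endothelial and smooth muscle markers, had 6 of 7 tested members below 0, none called, and a median of -0.61. That median was -0.39 without germ-free replicate 1, -0.96 when germ-free replicate 2 was left out and -0.93 for conventionalized replicate 2. Its summed signal ranged from 3850 to 4938 in germ-free and from 1977 to 3324 in conventionalized material. Of its 8 members with a probe set, 7 passed the filter on low signal. The part of these cells in the Enpep value was not tested.

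Anpep (16790), aminopeptidase N, which takes neutral residues from peptides, had the widest duplicate gap of the 8 genes. Its signals were 405 and 368 in germ-free but 94.5 and 619 in conventionalized material, so the conventionalized arrays lay on either side of the germ-free pair. The log2 difference of -0.54 ± 0.52 rests on conventionalized replicate 1 and was 0.64 without it. Macrophage and dendritic cell markers, a further known source of Anpep, had 3 of 3 tested members above 0 and summed signals of 7930 to 8986 in germ-free and 17468 to 18947 in conventionalized material. Most of each sum was Lyz2, whose probes can bind Lyz1, at 5627 and 6963 in germ-free against 15930 and 14914 in conventionalized material. Adgre1 and Csf1r, the other tested members, had overlapping groups. Of the 5 members of this list, 3 passed the filter on low signal. Fibroblast markers had 4 of 6 tested members below 0, with sums of 3780 to 4047 against 3124 to 3201. No tested member of either list was called. The part of these cell types in the Anpep value was not tested. The ratio of Enpep to Anpep, both zinc aminopeptidases, moved by 1.27 and 1.84 between duplicates, more than the -0.21 between groups.

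Dpp4 (13482), dipeptidyl peptidase 4, which cleaves dipeptides after proline and inactivates incretin hormones, was covered by 4 probe sets. The brightest, 1416697_at, read 1453 and 1974 in germ-free against 917 and 2077 in conventionalized material, with a log2 difference of -0.29 ± 0.42. The second, 1459973_x_at, read 1723 and 1572 against 798 and 1414, a difference of -0.62 ± 0.42. The third, 1438279_at, gave 665 and 346 against 342 and 192, a difference of -0.83 ± 0.50. At these last probe sets the groups were separate, whereas at the brightest and at 1441342_at (-0.16 ± 0.59) they overlapped. All 4 differences were below 0 and none passed limma's threshold. The lymphoid markers, which stand for a further known source of Dpp4, held 5 tested members with 3 above 0 and a median of 0.12. Leaving out germ-free replicate 2 turned it to -0.41, and it was 0.76 without germ-free replicate 1 and 0.64 when conventionalized replicate 2 was left out. The list had summed signals of 817 to 1353 in germ-free and 1485 to 1898 in conventionalized material. Of its 7 members with a probe set, 5 passed the filter on low signal. The T cell genes Cd3e and Cd3g, with mean signals of 28.2 and 69.0, did not.

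**Figure D2:**
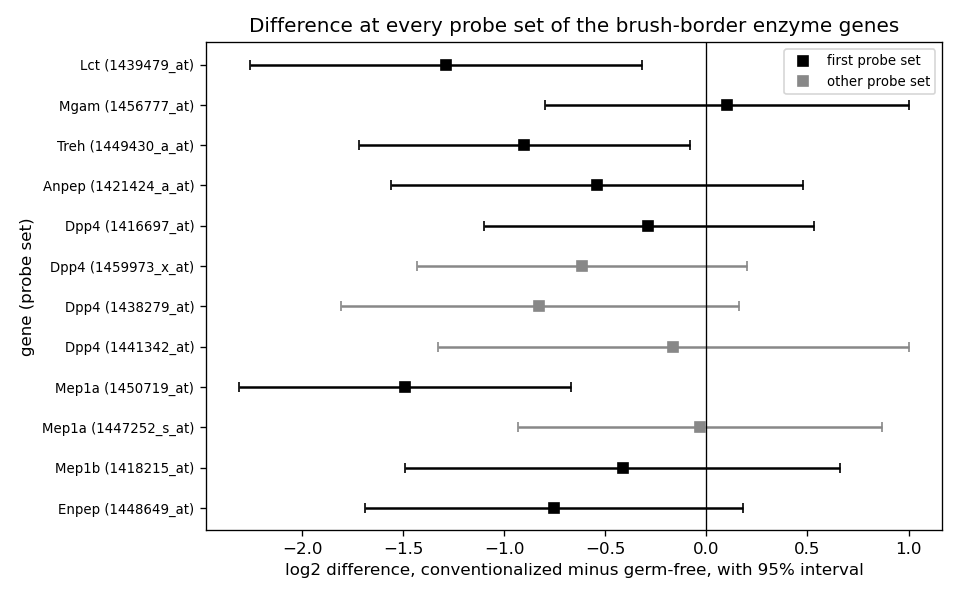
Log2 difference (conventionalized minus germ-free) with its 95% interval at each of the 12 probe sets; black squares are the brightest probe set of a gene and grey squares the others. The intervals of Lct, Treh and the brightest Mep1a probe set lie below 0, while the other Mep1a probe set is centred at -0.03.

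The enzymes also shared a pattern between duplicates of a single pool. In the germ-free group 7 of 8 genes read higher on replicate 2, all but Anpep, with a median log2 gap of 0.42, while 45.6% of all genes did so with a median gap of -0.08. In the conventionalized group all 8 read higher on replicate 2, with a median gap of 0.84, beside 50.5% and 0.01 over all genes. These gaps arise between aliquots of the same RNA, and they are of the size of the group differences of Dpp4, Mep1b and Enpep. Summed over the 8 genes, the signal was 28093 and 42771 in germ-free against 17002 and 28716 in conventionalized material, so the brighter conventionalized array lay above the dimmer germ-free array.

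Conventionalized replicate 1 was the lowest array for all of the 8 but Mgam. Without it, 4 of 8 genes were below 0 and the median was -0.19. Without conventionalized replicate 2 the median was -1.02 with 7 of 8 below 0, without germ-free replicate 1 it was -0.85 with 8 of 8 below 0, and without germ-free replicate 2 it was -0.40 with 7 of 8 below 0. No gene of the 8 was called in any of these fits. Lct, Treh and Mep1a stayed below 0 at their brightest probe sets with each array left out, which their separate groups fixed in advance. Enpep, whose groups overlapped, also stayed below 0.

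**Figure D3:**
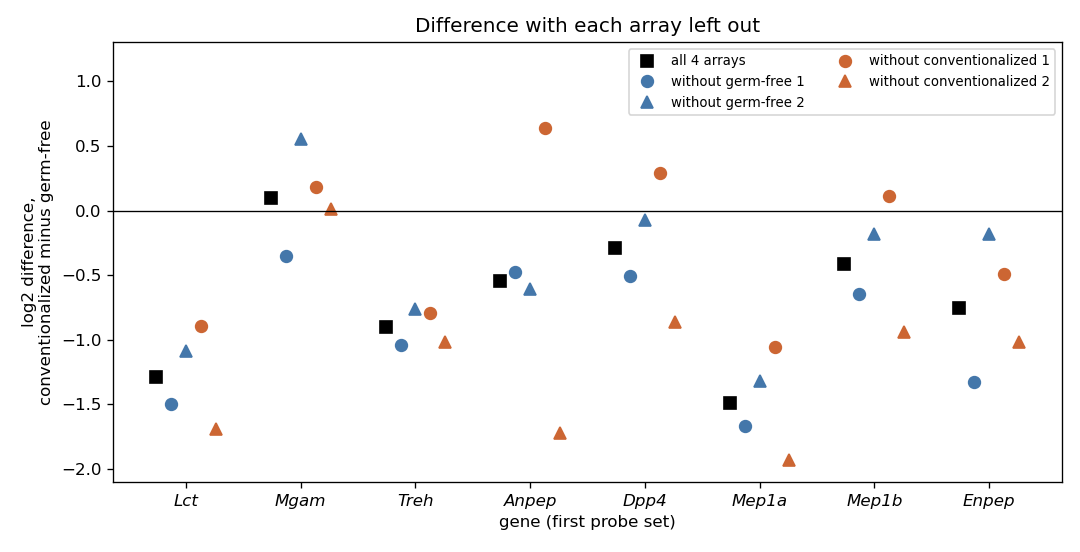
Log2 difference of each gene at its brightest probe set with all 4 arrays (black squares) and with each array left out in turn. Without conventionalized replicate 1 the values of Anpep, Dpp4 and Mep1b move above 0, to 0.64, 0.29 and 0.11, while those of Lct, Treh, Mep1a and Enpep stay below.

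Other genes of the brush border were compared in the same fit. Of 15 further brush-border hydrolases, 11 were tested and none was called. Of these 9 lay below 0, with a median of -1.17, and in 7 the groups were separate and lower, beside 16.1% of all genes. Enpp3, an ectonucleotidase, read 8540 and 13724 in germ-free against 2748 and 3783 in conventionalized material (-1.74 ± 0.50; limma adjusted p = 0.0902). Alpi, intestinal alkaline phosphatase, had a log2 difference of -0.91 ± 0.44, Asah2, neutral ceramidase, -1.23 ± 0.42, and Dpep1, a dipeptidase, -1.45 ± 0.42. Tmprss15, enteropeptidase (1.71 ± 1.26), and Akp3, a further alkaline phosphatase (1.10 ± 0.88), were the 2 members above 0, and are named after their values were seen. Both had separate and higher groups, beside 15.9% of all genes. The median was -0.44 without conventionalized replicate 1.

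Transporters and first users of the released sugars, peptides and amino acids numbered 17 tested of 19, with 15 below 0, a median of -0.69 and none called. Slc5a1, the sodium-glucose cotransporter of the brush border, read 5963 and 10685 against 4796 and 6023, overlapping groups with a difference of -0.57 ± 0.51. Slc7a9, a subunit of the cystine and dibasic amino acid exchanger, had a difference of -0.78 ± 0.43 with separate groups. Slc43a2, an amino acid transporter, had -0.72 ± 0.49. Slc5a9, a further sodium-sugar cotransporter, was above 0 at 0.85 ± 0.43, with signals of 5278 and 790 in germ-free against 8682 and 1589 in conventionalized material. Its duplicates lay far apart, with an SD of 1.81 on the log2 scale. The SE, shared by probe sets of like signal, does not carry that spread. The list median was -0.36 without conventionalized replicate 1.

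The scaffold proteins of the microvillus had 13 of 17 tested members below 0, a median of -0.41 and none called. Krt20, a keratin of mature enterocytes, had a difference of -0.71 ± 0.57, Slc9a3r1, a membrane-scaffold protein, -0.51 ± 0.57, and Vil1, villin, which bundles the actin core, -0.21 ± 0.54. Ezr, the membrane-actin linker ezrin, was at 0.62 ± 0.47, with signals of 7128 and 1697 in germ-free against 10599 and 2734 in conventionalized material. Its duplicates also lay far apart, with an SD of 1.41 on the log2 scale, which the shared SE does not carry. The median was -0.81 without conventionalized replicate 2. Transcription factors known to drive enterocyte genes had 10 of 13 tested members below 0, a median of -0.44 and none called, among them Klf4 at -1.24 ± 0.42 and Creb3l3 at -0.97 ± 0.43, with Cdx2 at -0.43 ± 0.42. The median was -0.74 without germ-free replicate 2. Hnf4a, a nuclear receptor that acts on many enterocyte genes, was at 0.08 ± 0.54 with overlapping groups.

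Other absorptive enterocyte markers, mostly of fat handling, lay in both directions. Of 9 tested, 5 were below 0 and 4 above, with a median of -0.04. Apoc3, an apolipoprotein of triglyceride-rich particles, was the member called, with a difference of -2.16 ± 0.47 (limma adjusted p = 0.00332). That call was lost after quantile normalization (limma adjusted p = 0.0539) and median centring (0.361), without the variance trend (1.00), and when germ-free replicate 2 (0.0839) or conventionalized replicate 1 (0.549) was left out. Fabp2, the intestinal fatty acid binding protein and named after its values were seen, read 20981 and 45252 in germ-free against 51528 and 142558 in conventionalized material, a difference of 1.48 ± 1.03 with separate groups. The list median was -0.37 with quantile normalization, -0.23 when germ-free replicate 1 was left out, and above 0 with several arrays left out, at 0.36 when conventionalized replicate 1 was left out, 0.13 for conventionalized replicate 2 and 0.15 for germ-free replicate 2. Its summed signal ranged from 82950 to 156804 in germ-free and from 105221 to 251083 in conventionalized material.

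Defining Paneth cell markers were measured on every array. Of 11 listed, 7 were tested, all 7 had a difference above 0, and 6 had separate and higher groups, beside 15.9% of all genes. Lyz1, the Paneth lysozyme, ran from 24112 to 51494 in germ-free and from 80185 to 249594 in conventionalized material. The list median was 1.25, or 0.48 with quantile normalization, and no member was called. Its summed signal ranged from 51043 to 93641 in germ-free and from 181260 to 343881 in conventionalized material, with no overlap between groups. Of its 8 members with a probe set, 7 passed the filter on low signal. Goblet cell markers had 5 of 8 tested members above 0 (median 0.32, and -0.08 with quantile normalization), enteroendocrine markers 2 of 9 (median -0.43), and crypt base stem cell markers 4 of 7 (median 0.25). With 1 array left out the goblet median ranged from 0.15 to 0.50, both with a germ-free array removed. The enteroendocrine median was -0.12 without conventionalized replicate 2 and -0.22 with the higher pseudocount tried. The stem cell median turned to -0.28 without conventionalized replicate 1 and to -0.16 without germ-free replicate 1, and was -0.12 over all probe sets of each gene and 0.12 with quantile normalization. Among 2 tested plasma cell markers Igha, which encodes the heavy chain of IgA, rose (2.44 ± 0.44; limma adjusted p = 5.5e-05), a call lost with median centring (0.113) and without the variance trend (1.00). The part of cell composition in the enzyme values was not tested.

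**Figure D4:**
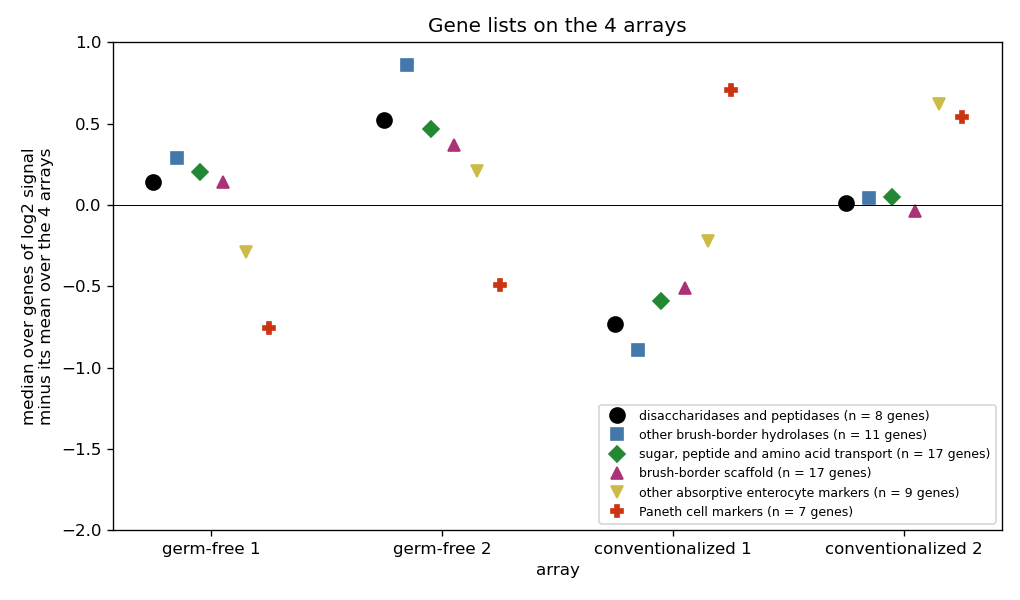
Median over the tested genes of each list of the log2 signal minus its mean over the 4 arrays, for each array. The disaccharidases and peptidases (black circles) are at 0.14 and 0.52 on the germ-free and -0.73 and 0.01 on the conventionalized arrays, the other hydrolases, transporters and scaffold genes are lowest on conventionalized replicate 1, and the Paneth cell markers are below 0 on both germ-free arrays and above 0 on both conventionalized arrays.

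The genes whose profile over the 4 arrays was most like the mean profile of the 8 enzymes were Trim31, Spata2, Fbxo25, Bmpr2 and Slc43a2. Likeness was the root mean square difference of centred log2 values over the 4 arrays, and it ran from 0.040 for Trim31 to 0.076 for Slc43a2. The 8 enzymes themselves lay 0.15 (Mep1b) to 0.57 (Anpep) from their own mean profile. With 12113 genes and 4 arrays, close profiles are easily found, and the list is given as a description.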

How the data were processed

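The authors deposited a linear, already scaled signal intensity for each probe set; their software is not given in the sources used here. In all, 45101 probe sets were listed, 64 of them controls. Symbols came from the platform annotation, in which 34958 probe sets name 1 gene, 932 several and 9211 none, matched by gene identifier to GRCm38.p6. Intensities became log2(intensity + 32), which understates changes of dim probe sets. Probe sets with a mean above the median of all (113.9), controls left out, were tested with limma 3.58.1 in R 4.3.3 (lmFit and eBayes with a variance trend, prior degrees of freedom infinite, 2 residual), Benjamini-Hochberg adjusted, two-sided. The fit was checked on simulated data. Scanner settings, deposited as other text, were read for batches only. The number of arrays limits the precision.

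The genes and lists were chosen with earlier results of these data known. Named were all 9 enzymes, the 5 nearest profiles, and of each list the called genes, otherwise up to 4 of the brightest. Alternatives were pseudocounts of 8 and 128, no filter, the brightest 25%, quantile normalization, median centring, no trend, a replicate block, each array left out, and the mean over a gene's probe sets.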

Additional observations from a re-analysis of the deposited data

How the results depend on the processing

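No enzyme gene was called under any alternative but the crossed block below. Under these, limma's count of all probe sets called was 75 in the fit as reported, 27 after median centring, 33 after quantile normalization and 0 without the variance trend (975 with an unadjusted p under 0.05 there). With 1 array left out it ranged from 41 to 213, and the enzyme median from -1.02 to -0.19, the latter without conventionalized replicate 1. With 1 array left out, signs changed for Mgam (-0.35 when germ-free replicate 1 was left out, 0.55 when it was replicate 2). They also changed for Anpep (-1.72 to 0.64), Dpp4 (-0.86 to 0.29) and Mep1b (-0.94 to 0.11), the lowest without conventionalized replicate 2 and the highest without conventionalized replicate 1. The cause was not tested. The arrays of the groups share a replicate number only. Deviations of same-numbered arrays correlated at -0.132 across probe sets, and the replicate block gave 30 probe sets called and no enzyme, and Apoc3 was not called there (limma adjusted p = 0.0760). A crossed replicate block, chosen after seeing the data, called 228 probe sets and 1 enzyme gene, Mep1a, named after its values were seen. With 2 arrays a group, the depth of replication limits what could be called.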
